A study of Mus musculus with 27 samples.

Results

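Kupffer cells are the macrophages that live in the sinusoids of the liver, where they take up particles, microbes, worn red cells and cell debris from the blood. In the mouse they are told apart from macrophages that enter the liver later by a set of surface receptors and secreted proteins that depend on signals from the neighbouring hepatocytes, stellate cells and endothelium. Lipid nanoparticles given into a vein pass through these sinusoids. The 8 genes described here are Marco, Cd163, Vsig4, Clec4f, Timd4, Cd5l, Folr2 and Siglec1, of 55414 genes in the count table, and they were selected by their symbols. They were chosen by their values in mice that received lipid nanoparticles (LNP) set against mice that did not, so this contrast is given below as a description without a test. All 8 averaged 10 counts or more over the libraries and were among the 14114 genes tested.

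RNA from the livers of 27 female Balb/c mice, 8 weeks old, was sequenced in 8 groups. Control mice (n = 4) received olive oil into the peritoneum and phosphate-buffered saline (PBS) into the tail vein. Oil was also given to the mice of the 4MU group (n = 3), which received daily gavage of 4-methylumbelliferone, an inhibitor of hyaluronan synthesis, and to those of the siLuc-LNP and siHAS2-LNP groups (n = 3 each), which received siRNA in lipid nanoparticles through the tail vein. The siRNA of siLuc-LNP targets luciferase, which mice do not have, and that of siHAS2-LNP targets hyaluronan synthase 2. The CCl4 group (n = 2) received carbon tetrachloride, a hepatotoxin that injures pericentral hepatocytes, without a tail vein injection in the labels. Both agents were given in the groups named CCl4 + siHAS2-LNP, CCl4 + siLuc-LNP and CCl4 + 4MU (n = 4 each). The injection and the particle therefore cannot be told apart in CCl4 mice. No label ties the mice of a group to separate batches, and p-values measure the spread between these livers.

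Total counts ranged from 7044386 in CCl4 + siHAS2-LNP mouse 4 to 29425937, and a limit of 3 counts corresponded to 0.102 to 0.426 CPM (counts scaled to a common library total). Has2, the targeted gene, had at most 2 counts in any library, so its knockdown could not be read in whole liver. Albumin (Alb), the major product of hepatocytes, was at 58023 CPM or more in every library. Every gene of the 13 lists used here was detected in at least one library. Gata6 and Sall1, listed for macrophages of other tissues, were above 0 in all 27 livers, with up to 468 and 1411 counts. Whole-liver counts do not show which cells these transcripts came from.

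The genes lie on 7 chromosomes, and each record below follows GRCm39. Marco (ENSMUSG00000026390), a class A scavenger receptor for bacteria and inhaled or circulating particles, lies at chr1:120402267-120432753 on the minus strand. Cd163 (ENSMUSG00000008845), the scavenger receptor for haemoglobin bound to haptoglobin, lies at chr6:124281606-124307560 on the plus strand and overlaps Gm56975 on the other strand. Vsig4 (ENSMUSG00000044206), a complement receptor of the immunoglobulin family, lies at chrX:95290807-95337044 on the minus strand. Clec4f (ENSMUSG00000014542), a C-type lectin that in mice is largely restricted to Kupffer cells, lies at chr6:83621524-83633169 on the minus strand. Timd4 (ENSMUSG00000055546), the phosphatidylserine receptor that binds dying cells, lies at chr11:46701620-46735177 on the plus strand. Cd5l (ENSMUSG00000015854), a secreted scavenger protein known as AIM, lies at chr3:87265182-87278380 on the plus strand. Folr2 (ENSMUSG00000032725), the folate receptor beta, lies at chr7:101489195-101506401 on the minus strand and overlaps Gm10602 and Gm45319 on the other strand. Siglec1 (ENSMUSG00000027322), the sialic acid lectin CD169, lies at chr2:130911140-130928685 on the minus strand. The strand setting of the counting was not stated, so reads of Cd163 and Folr2 cannot be told apart from those of the overlapping genes.

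The sequence before the start site is shown for Marco and Cd163, the pair that was lowest in particle mice, and for Clec4f and Timd4, the pair that fell most clearly with CCl4 in particle mice. Each window runs from 250 bases before to 50 bases after the start of the Ensembl canonical transcript in GRCm39, 5′ to 3′ on the strand of the gene: chr1:120432704-120433003 (minus), chr6:124281356-124281655 (plus), chr6:83633120-83633419 (minus) and chr11:46701370-46701669 (plus). Capitals mark matches, on either strand, to GAGGAA (the core bound by PU.1), CACGTG (the E-box of the MiT and USF families), TGCTGA (a half-site of MAF factors) and AGGTCA (a half-site of nuclear receptors).
Marco: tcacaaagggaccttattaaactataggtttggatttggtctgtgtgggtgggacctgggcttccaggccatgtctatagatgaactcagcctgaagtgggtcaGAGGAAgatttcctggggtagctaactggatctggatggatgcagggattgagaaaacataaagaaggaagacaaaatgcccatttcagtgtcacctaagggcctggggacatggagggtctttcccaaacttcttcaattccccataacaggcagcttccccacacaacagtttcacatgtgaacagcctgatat
Cd163: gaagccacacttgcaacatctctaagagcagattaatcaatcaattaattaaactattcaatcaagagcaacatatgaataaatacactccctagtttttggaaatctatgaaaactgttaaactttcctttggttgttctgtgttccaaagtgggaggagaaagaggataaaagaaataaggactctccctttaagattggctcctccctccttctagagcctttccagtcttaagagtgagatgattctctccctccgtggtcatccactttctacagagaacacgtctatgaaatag
Clec4f: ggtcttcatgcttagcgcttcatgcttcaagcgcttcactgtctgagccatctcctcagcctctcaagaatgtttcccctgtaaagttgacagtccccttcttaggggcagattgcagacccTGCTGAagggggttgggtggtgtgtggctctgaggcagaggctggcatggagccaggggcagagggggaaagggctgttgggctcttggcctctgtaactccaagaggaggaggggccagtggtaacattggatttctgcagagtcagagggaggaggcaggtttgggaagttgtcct
Timd4: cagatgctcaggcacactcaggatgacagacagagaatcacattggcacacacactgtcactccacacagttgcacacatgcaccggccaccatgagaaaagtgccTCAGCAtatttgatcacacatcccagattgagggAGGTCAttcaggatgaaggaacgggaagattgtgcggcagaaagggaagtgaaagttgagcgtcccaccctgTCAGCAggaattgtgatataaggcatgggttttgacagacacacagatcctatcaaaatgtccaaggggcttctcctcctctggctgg

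These windows differed in the letters they hold. Marco had 1 match to GAGGAA and none to the other motifs, Cd163 had no match, Clec4f had 1 match to TGCTGA, and Timd4 had 2 matches to TGCTGA and 1 to AGGTCA. Of the 8 genes, 3 held GAGGAA, 5 held TGCTGA, 1 held AGGTCA and 0 held CACGTG. Among 21770 windows of protein-coding genes the shares were 27.5%, 17.9%, 15.1% and 7.81%, in the same order. The share of G and C ranged from 38.3% in Cd163 to 56.3% in Clec4f (median 47.3%), against a median of 54.3% over all windows. A match is a run of letters and not a shown binding site.

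In control livers the level per kilobase of exon (CPM divided by exonic length) was highest for the secreted protein gene Cd5l, with 67.6, followed by the lectin gene Clec4f with 44.9 and the complement receptor gene Vsig4 with 22.3. Marco (3.41), Timd4 (3.37), Cd163 (2.61) and Siglec1 (2.12) formed a lower tier, and Folr2 was lowest at 0.639. Counts per library averaged 2421 for Cd5l and 20.3 for Folr2, so the precision differed widely between the genes.

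Marco and Cd163 stood apart from the other 6 genes in mice given particles. Marco had 7.98, 9.55, 5.80 and 2.90 CPM in the 4 control mice and 1.23, 4.95 and 4.76 CPM in the 4MU mice, against 0.0571, 0.341 and 0.439 CPM in the siLuc-LNP mice and 0.565, 0.801 and 0.358 CPM in the siHAS2-LNP mice. The lowest non-particle mouse, 4MU mouse 1, was thus above the highest particle mouse. With CCl4, Marco had 15.0 and 31.4 CPM in the CCl4 mice and 19.4, 9.66, 9.75 and 33.5 CPM in the CCl4 + 4MU mice. It had 0.0783, 0.540, 0.300 and 0.0346 CPM in CCl4 + siLuc-LNP mice and 0.0391, 0.146, 0.281 and 0 CPM in CCl4 + siHAS2-LNP mice. All 8 particle mice with CCl4 had at most 14 counts of this scavenger receptor, while the 6 others had 194 to 941. The value of 0 came from the shallowest library, where 3 counts correspond to 0.426 CPM. Marco passed the filter of 10 counts on average through the mice without particles.

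Cd163 showed a like split. It had 18.7, 7.72, 11.6 and 19.9 CPM in control, 7.98, 12.2 and 9.61 CPM in 4MU, 1.14, 0.797 and 0.439 CPM in siLuc-LNP and 1.13, 1.70 and 0.896 CPM in siHAS2-LNP mice. With CCl4 it had 4.18 and 9.03 CPM in the CCl4 mice, 7.22, 5.48, 4.98 and 7.04 CPM in CCl4 + 4MU, 0.196, 0.617, 0.480 and 0.173 CPM in CCl4 + siLuc-LNP and 0.586, 0.488, 0.241 and 0.267 CPM in CCl4 + siHAS2-LNP mice. No particle mouse reached the level of a mouse without particles, at either injury state.

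On the log2 scale of the fit, the difference of particle from non-particle groups without CCl4 was -3.55 for Marco (standard error 0.491, 11.7-fold lower) and -3.60 for Cd163 (0.295, 12.1-fold lower). With CCl4 the differences were -6.80 for Marco (standard error 0.493, 111-fold lower) and -4.04 for Cd163 (0.301, 16.4-fold lower). From the lowest difference upwards, Cd163 took place 5 and Marco place 6 among 14114 genes without CCl4, and Marco place 1 and Cd163 place 7 with CCl4. Both genes were chosen on this contrast, so nothing is read from these places. Each particle group was also set against control or CCl4 mice as a description, and the cause was not tested. Marco was 22.0-fold lower in siLuc-LNP than in control mice and 98.9-fold lower in CCl4 + siLuc-LNP than in CCl4 mice, and Cd163 18.5-fold and 18.4-fold lower. With siHAS2-LNP the values were 11.1-fold and 161-fold for Marco and 11.5-fold and 15.8-fold for Cd163. For Marco under CCl4 the standard errors on the log2 scale were 0.682 with siLuc-LNP and 0.750 with siHAS2-LNP. The particle mice there had 1 to 14 and 0 to 7 counts of Marco, around the limit of 3 counts, so the size of these folds is uncertain. In whole liver, fewer Kupffer cells and less RNA per cell cannot be told apart.

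**Figure D1:**
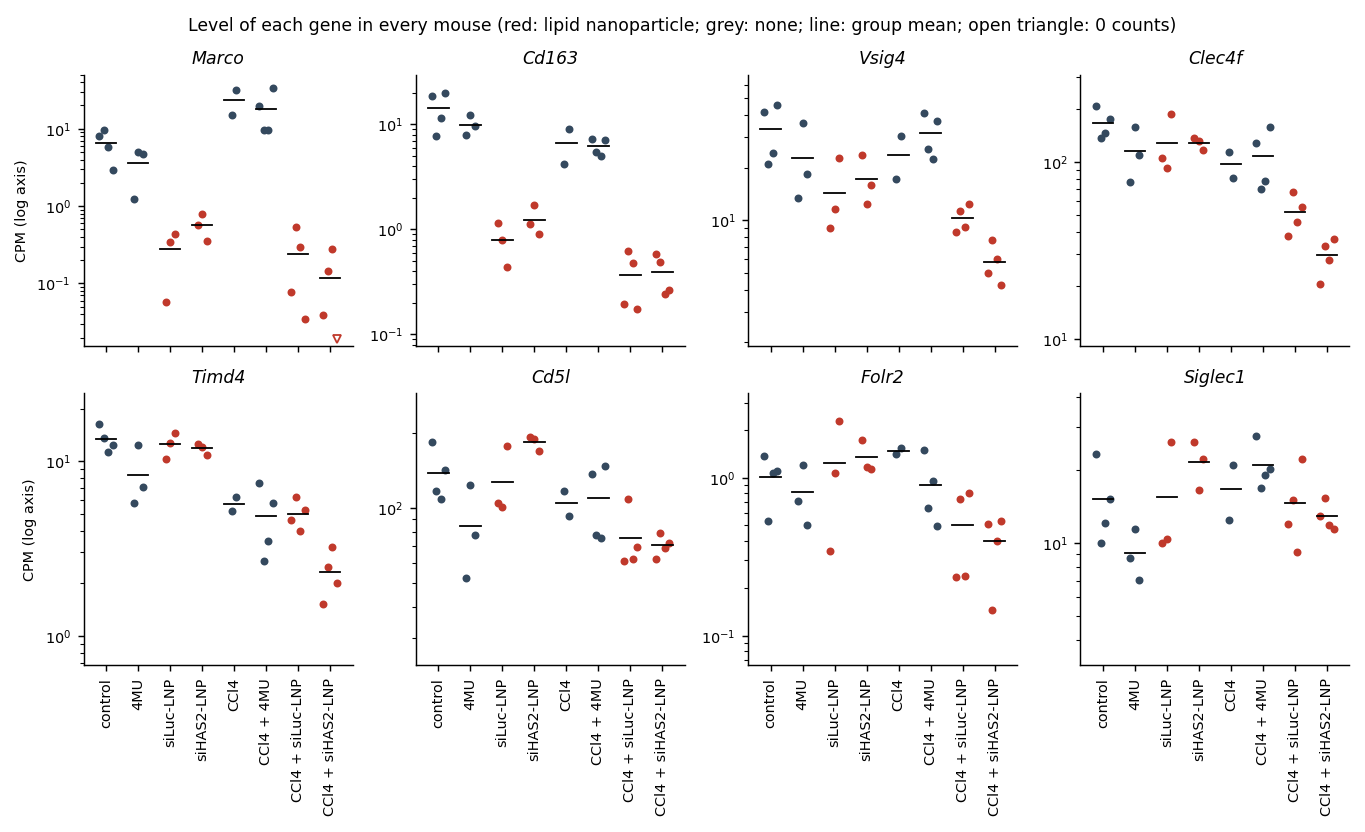
Level of each gene in every mouse, in CPM on a log axis, with the 8 groups along the horizontal axis. Points are mice, lines are group means, red marks particle groups and grey the others, and the open triangle is the CCl4 + siHAS2-LNP mouse with 0 counts of Marco. Only Marco and Cd163 show every red point below every grey point.

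Vsig4 and Clec4f were lower in particle mice chiefly under CCl4. Vsig4 had 17.4 and 30.3 CPM in the CCl4 mice and 22.5 to 41.0 CPM in CCl4 + 4MU, against 8.57 to 12.4 CPM in CCl4 + siLuc-LNP and 4.27 to 7.76 CPM in CCl4 + siHAS2-LNP mice. Clec4f had 114 and 81.4 CPM in the CCl4 mice and 70.2 to 157 CPM in CCl4 + 4MU, against 38.0 to 67.9 CPM in CCl4 + siLuc-LNP and 20.4 to 36.5 CPM in CCl4 + siHAS2-LNP mice. The particle and non-particle mice with CCl4 did not overlap in either gene. Without CCl4 both overlapped, with 9.03 to 23.6 CPM in particle mice and 13.5 to 45.6 CPM in the others for Vsig4, and 92.5 to 186 and 77.2 to 207 CPM for Clec4f. The log2 differences were -0.79 without and -1.82 with CCl4 for Vsig4, and -0.11 and -1.39 for Clec4f.

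The remaining 4 genes were not lower in the particle groups than in the mean of the control and 4MU groups, without CCl4. The log2 difference was 0.20 for Timd4, 0.50 for Cd5l, 0.51 for Folr2 and 0.64 for Siglec1 (standard errors 0.203 to 0.371). With CCl4 it was -0.62 for Timd4, -0.55 for Cd5l, -1.36 for Folr2 and -0.44 for Siglec1 (0.201 to 0.388). Against control alone, without CCl4, the values with siLuc-LNP and siHAS2-LNP were -0.10 and -0.18 for Timd4 and -0.12 and 0.42 for Cd5l. For Folr2 they were 0.29 and 0.40, and for Siglec1 0.04 and 0.51. In the contrast with both non-particle groups, the median of all 8 was 0.04 without and -1.38 with CCl4. Every particle mouse lay below every non-particle mouse in 2 of the 8 genes without CCl4 (6 mice against 7, where 0.177% of all tested genes did so), in 4 of 8 with CCl4 (8 against 6, 0.12%) and in 2 of 8 over all 27 mice (14 against 13, 0.0354%). In these contrasts 1.67% of all genes without CCl4 and 0.368% with CCl4 passed an adjusted p of 0.05. Since the genes were chosen on this contrast, nothing is read from these counts.

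**Figure D2:**
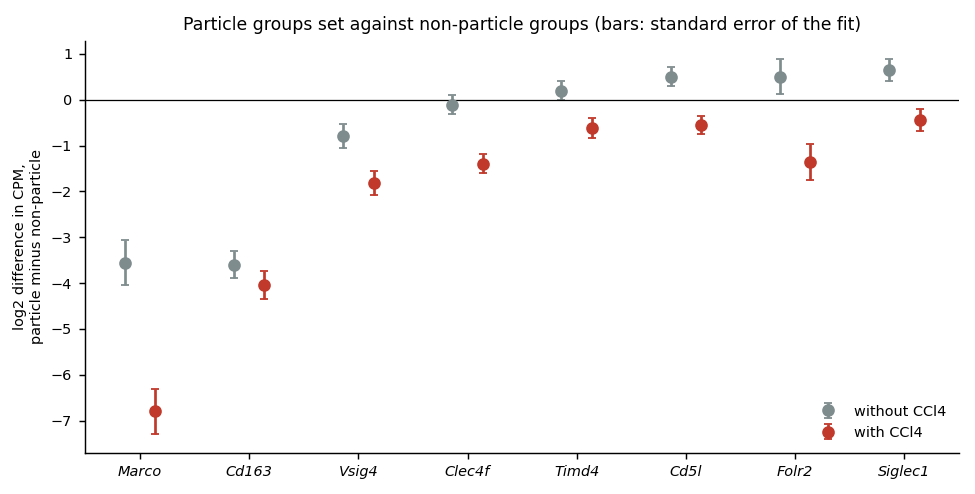
Log2 difference in CPM between particle and non-particle groups for each gene, without CCl4 (grey) and with CCl4 (red), with the standard error of the fit as bars. Marco and Cd163 lie below -3 in both, while Timd4, Cd5l, Folr2 and Siglec1 lie above 0 without CCl4 and below 0 with it.

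Genes of other macrophages had their own values in the same mice. Over 16 genes of macrophages in general, among them Csf1r (the receptor of the growth factor CSF1), Cd68 and the C1q chains, the summed level was 263 to 616 CPM in non-particle mice and 503 to 801 CPM in particle mice without CCl4, and 591 to 1069 and 341 to 888 CPM with CCl4. Over 10 monocyte genes, among them Ccr2 and Cx3cr1, the sums were 10.7 to 31.2 and 40.7 to 64.8 CPM without CCl4, and 45.6 to 91.4 and 41.3 to 87.6 CPM with CCl4. Of 15 tested genes that also mark Kupffer cells, the median log2 difference was 0.34 without and -0.04 with CCl4, with 4 and 8 of them below 0. Among them Kcna2 had -1.26 and -1.25. Cd209f, listed but not tested, had at most 1 count in any particle mouse and 0 to 22 counts in the others. Cd207 went the other way without CCl4. Its group means were 2.60 and 2.33 CPM in siLuc-LNP and siHAS2-LNP against 0.663 and 0.527 CPM in control and 4MU mice. With CCl4 they were 3.74 and 1.84 CPM with siLuc-LNP and siHAS2-LNP, 1.44 CPM in CCl4 and 2.94 CPM in CCl4 + 4MU mice. Kcna2, Cd209f and Cd207 are named after their values were seen. The part of these cells in the levels of the 8 genes was not tested.

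Set against Clec4f, whose group means were 115 to 166 CPM without CCl4, 97.5 and 108 CPM in CCl4 and CCl4 + 4MU, and 51.8 and 29.6 CPM in CCl4 + siLuc-LNP and CCl4 + siHAS2-LNP mice, the genes differed in proportion. Marco had 1.59 to 7.03 counts per 100 Clec4f counts in the 7 non-particle mice without CCl4, 12.5 to 38.6 in the 6 non-particle mice with CCl4, and 0 to 1.01 in the 14 particle mice. Cd163 had 3.68 to 11.3 in the 13 non-particle mice and 0.236 to 2.87 in the particle mice. Cd5l had 67.6 to 88.8 in control and 4MU mice, 95.4 to 109 in siLuc-LNP, 141 to 146 in siHAS2-LNP, 93.9 to 114 in CCl4 and CCl4 + 4MU, 125 to 161 in CCl4 + siLuc-LNP and 198 to 305 in CCl4 + siHAS2-LNP mice. Its proportion was therefore higher with siHAS2-LNP than with siLuc-LNP in every mouse at either injury state. Siglec1 had 6.49 to 11.3 in control and 4MU mice, 9.51 to 14.02 in siLuc-LNP and 12.6 to 19.2 in siHAS2-LNP mice. With CCl4 it had at most 25.7 in CCl4 and CCl4 + 4MU mice. It had 19.97 to 40.2 in CCl4 + siLuc-LNP and 31.4 to 63.2 in CCl4 + siHAS2-LNP mice. The mean level of Siglec1 was 15.2 CPM in control and 12.9 CPM in CCl4 + siHAS2-LNP mice. Between these groups the higher proportion thus went with the lower Clec4f. In siHAS2-LNP and CCl4 + 4MU mice the mean of Siglec1 was 21.6 and 20.9 CPM. There the higher proportion than in control went with a higher Siglec1 as well as a lower Clec4f. These ratios were examined after their values were seen and were not tested.

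**Figure D3:**
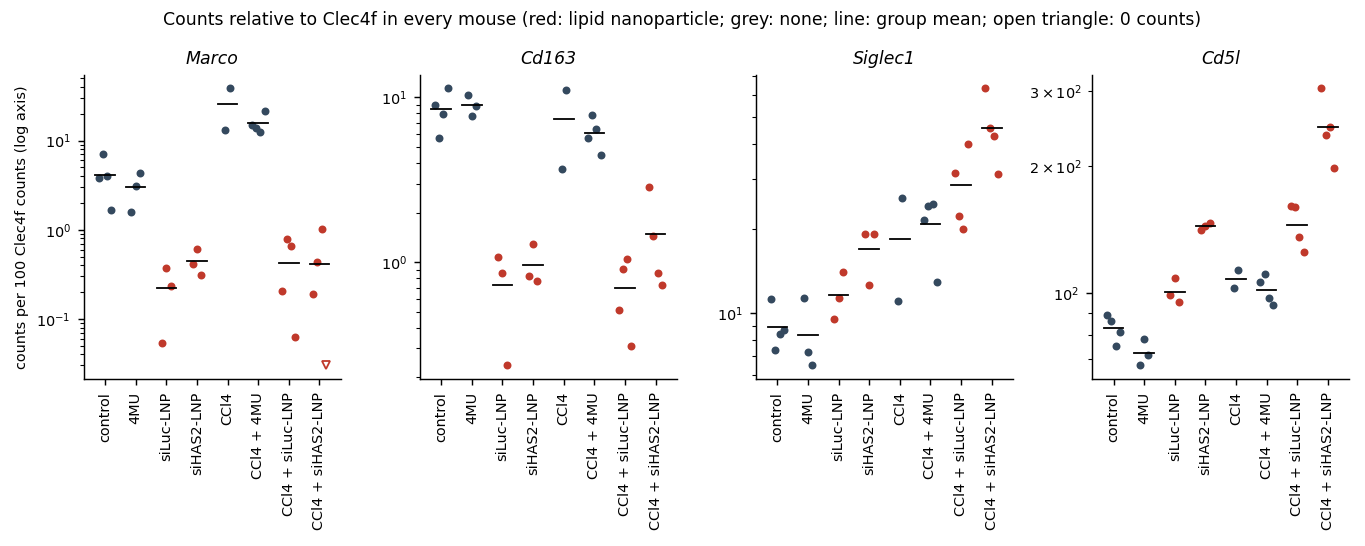
Counts of Marco, Cd163, Siglec1 and Cd5l per 100 counts of Clec4f in every mouse, on a log axis, with groups along the horizontal axis, lines at group means and an open triangle for 0 counts. Marco and Cd163 are lower in red (particle) than in grey points, and Cd5l is highest in CCl4 + siHAS2-LNP mice, at 198 to 305.

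Whether injury changed the Kupffer cell genes was asked by setting CCl4 mice against control mice, a contrast that the rule for these genes did not use. Marco rose and Cd163 and Timd4 fell, 3 of 8 genes where 34.1% of all tested genes passed (edgeR quasi-likelihood test, Benjamini-Hochberg adjustment over all 14114 genes). That count is close to the share over all genes, so it does not set these genes apart. On the log2 scale Marco rose by 1.83 (SE, the standard error, 0.531, adjusted p = 0.00980, 3.56-fold), with both CCl4 mice above all 4 control mice. Cd163 fell by 1.12 (0.395, adjusted p = 0.0297), from a mean of 14.5 ± 5.80 CPM (SD, n = 4) to 6.61 ± 3.43 CPM (n = 2), and its ranges overlapped. Timd4 fell by 1.23 (0.335, adjusted p = 0.00642), with 16.3, 13.5, 11.3 and 12.4 CPM in control and 5.15 and 6.21 CPM in CCl4 mice. Clec4f (-0.77), Vsig4 (-0.48), Cd5l (-0.40), Siglec1 (0.14) and Folr2 (0.53) did not pass. With 2 CCl4 mice the calls rested on single livers. Without CCl4 mouse 2, Marco had 1.22 (adjusted p = 0.235), and without CCl4 mouse 1, Cd163 had -0.66 (0.311) and Timd4 -1.09 (0.0677), leaving 1 call. Cd163 was also lost without control mouse 1 (-0.98, adjusted p = 0.0716) or control mouse 4 (-0.92, 0.0836), and in a fit of the compared groups alone (-1.11, 0.0619).

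Other genes of the Kupffer cell and its neighbours moved in both directions under CCl4. Of the 15 other Kupffer genes tested, 4 fell, among them Ccl24, a chemokine (-1.48, adjusted p = 0.00195), and Slc40a1, the iron exporter ferroportin (-0.84, 0.00449), and 2 rose, Vcam1 (1.65, 1.02e-04) and Id1 (1.41, 0.0289), the latter named after its value was seen. With 34.1% of all tested genes passing in this comparison, the count for the other Kupffer genes is also near that share. Of 9 monocyte genes 8 rose, with Cx3cr1 at 2.56 and Ccr2 at 2.19, and 6 of 7 genes of scar-associated macrophages rose, with Trem2 at 5.32 and Gpnmb at 7.62. Of 16 general macrophage genes 5 rose and 2 fell. Without CCl4 mouse 2, the number past the threshold went from 8 to 3 for monocyte genes, from 7 to 3 for general macrophage genes and from 6 to 2 for the other Kupffer genes, and the last was 3 without CCl4 mouse 1. Of 11 genes for signals that maintain Kupffer cells, Tgfb1 rose (0.94, adjusted p = 0.00109) and Gdf2, the gene of BMP9, fell (-0.68, 0.0131). The medians were -0.44 for the 8 genes, -0.62 for the other Kupffer genes, 2.55 for monocyte genes and 2.98 for scar macrophage genes, against -0.02 over all tested genes. Summed monocyte genes ranged from 21.3 to 31.2 CPM in control and from 60.7 to 91.4 CPM in CCl4 mice.

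In mice given 4MU, CCl4 raised Marco and Siglec1 and lowered Timd4, again 3 of 8 genes (23.7% of all tested genes). Marco rose by 2.3 (standard error 0.533, adjusted p = 0.00279, 4.93-fold), with each of the 4 CCl4 + 4MU mice above each of the 3 4MU mice, and this call held without any single mouse. Siglec1 rose by 1.20 (0.335, adjusted p = 0.0113), from 7.08 to 11.5 CPM in 4MU mice to 16.8 to 27.6 CPM. Without 4MU mouse 3 it had 1.05 (adjusted p = 0.0672). Timd4 fell by 0.79 (0.282, adjusted p = 0.0434), a call that was lost without 4MU mouse 2 (-0.40, 0.388) or 3 (-0.90, 0.0562) and without CCl4 + 4MU mouse 2 (-0.61, 0.116) or 3 (-0.66, 0.126), and in a fit of the compared groups alone (0.142). Cd163 (-0.68), Clec4f (-0.08), Folr2 (0.13), Cd5l (0.37) and Vsig4 (0.47) did not pass. Among the lists, 12 of 16 general macrophage genes rose, 7 of 9 monocyte genes rose and 6 of 7 scar macrophage genes rose, while 3 of 15 other Kupffer genes rose and 3 fell. Without 4MU mouse 1 or 2, 4 monocyte genes passed.

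In mice given siLuc-LNP, CCl4 lowered 3 of the 8 genes and raised none (24.2% of all tested genes). Timd4 fell by 1.32 (standard error 0.280, adjusted p = 0.00127), from 10.3, 12.6 and 14.6 CPM to 4.58, 6.20, 3.96 and 5.23 CPM. Clec4f fell by 1.30 (0.287, adjusted p = 0.00169), from 106, 92.5 and 186 CPM to 38.0, 67.9, 45.9 and 55.4 CPM. Neither gene overlapped between the groups, and both calls held without any single mouse. Cd5l fell by 0.76 (0.275, adjusted p = 0.0459), but not without siLuc-LNP mouse 3 (-0.45, 0.287) or CCl4 + siLuc-LNP mouse 1 (-0.66, 0.119), 3 (-0.66, 0.100) or 4 (-0.70, 0.104). In a fit of the compared groups alone its adjusted p was 0.107, and with edgeR's filterByExpr 0.0510. Marco had -0.33 (0.951, adjusted p = 0.835) from a level that was already at 1 to 10 counts. Folr2 (-1.28, adjusted p = 0.0765) did not pass, but did without siLuc-LNP mouse 1 (-1.71, 0.0212). Cd163 (-1.12, adjusted p = 0.105) did not pass, but did without CCl4 + siLuc-LNP mouse 2 (-1.54, 0.0439) and without the low-count filter (-1.10, 0.0497). Of the other Kupffer genes 6 fell, with Fcna, the gene of ficolin A, at -1.34 (adjusted p = 0.00383), and Vcam1 rose (1.47, 3.47e-04).

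In mice given siHAS2-LNP, CCl4 lowered 6 of the 8 genes, where 12.8% of all tested genes passed. Timd4 fell by 2.34 (standard error 0.299, adjusted p = 8.77e-06, 5.06-fold lower), from 12.5, 12.1 and 10.9 CPM to 1.52, 2.49, 3.21 and 2.00 CPM. Clec4f fell by 2.12 (0.292, adjusted p = 2.35e-05, 4.34-fold lower), from 136, 131 and 116 CPM to 20.4, 33.7, 27.8 and 36.5 CPM. The groups lay far apart in both genes. Vsig4 fell by 1.57 (0.359, adjusted p = 0.00452), from 12.5 to 23.6 CPM to 4.27 to 7.76 CPM, and Cd5l by 1.38 (0.276, adjusted p = 0.00141), from 170 to 193 CPM to 62.2 to 79.5 CPM. These 4 calls held without any single mouse, the shallow CCl4 + siHAS2-LNP mouse 4 included.

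The remaining calls in siHAS2-LNP mice were less firm. Cd163 fell by 1.57 (standard error 0.470, adjusted p = 0.0274), and adjusted p was 0.0568 and 0.149 without siHAS2-LNP mouse 1 and 2, 0.104 and 0.0524 without CCl4 + siHAS2-LNP mouse 3 and 4, and 0.128 with limma-voom. Folr2 fell by 1.81 (0.554, adjusted p = 0.0315) at 3 to 43 counts per library, and adjusted p was 0.122, 0.0599 and 0.0555 without siHAS2-LNP mouse 1, 2 and 3, and 0.105 and 0.0735 without CCl4 + siHAS2-LNP mouse 2 and 3. Siglec1 (-0.74, adjusted p = 0.136) and Marco (-2.03, 0.161) did not pass. Of the other Kupffer genes 6 fell, with Fcna at -2.27 (adjusted p = 5.86e-05) and Ccl24 at -2.07 (3.38e-05), and Id1, named after its value was seen, rose (1.75, 0.0195). Of 16 general macrophage genes 5 fell, with C1qa at -1.30 (3.25e-04) and Csf1r at -1.16 (0.00157), and none rose, while 6 of 7 scar macrophage genes rose. The number of general macrophage genes past the threshold was 8 with DESeq2 or without the low-count filter, and 9 in a fit of the compared groups alone.

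Across the arms, Timd4 passed with a lower value in all 4 comparisons of CCl4 mice with their own arm. Its calls in the arms without particles were lost without single mice, as given above. The share of all tested genes that passed in the same direction in all 4 was not counted. The arms were compared directly by interaction terms. That of 4MU with CCl4 passed for 0 of 8 genes (5.67% of all tested genes, 1 of 8 against 25.5% of all genes at an unadjusted p under 0.05), with 1.06 for Siglec1 (95% interval 0.08 to 2.03, adjusted p = 0.181) and 0.47 for Marco (-1.0 to 1.94). That of siHAS2-LNP with CCl4 among particle mice passed for 0 of 8 (0.0354%, 2 of 8 against 11.4% of all genes unadjusted). All 8 values were below 0, from -0.46 for Cd163 to -1.70 for Marco, against a median of 0.0062 over all tested genes. DESeq2 and limma-voom also called 0 of 8 in both. In the siHAS2-LNP interaction, 15 of 16 general macrophage genes and 11 of 15 other Kupffer genes were also below 0. The 8 genes vary together between mice, with a median Pearson correlation of 0.47 within groups, and the lists come from the same livers. A shared sign is therefore not a set of separate observations, and nothing is read from these counts.

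**Figure D4:**
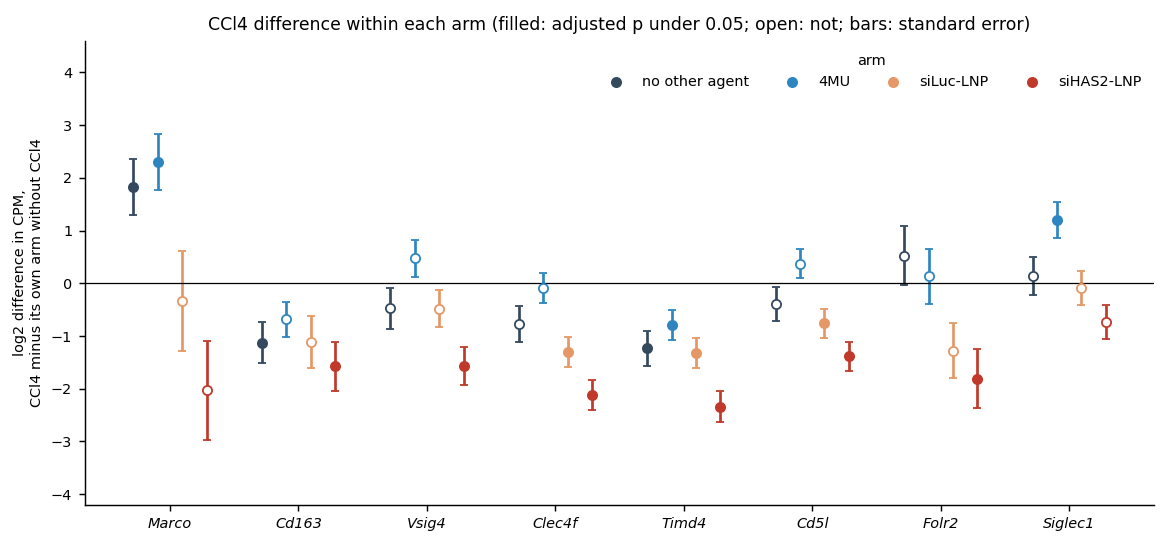
Log2 difference in CPM between CCl4 mice and mice of the same arm without CCl4, for each gene and the 4 arms, with standard errors as bars and filled points for adjusted p under 0.05. Marco lies at 1.83 and 2.3 in the arms without particles, and Timd4 is filled and below 0 in all 4 arms. The calls of Timd4 in the arms without particles were lost without single mice.

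4MU was set against its own control to ask whether the drug alone moved these genes. Without CCl4, 0 of 8 passed (0.00709% of all tested genes), with 3 of 8 (6.84% of all tested genes) at an unadjusted p under 0.05 and 0 of 8 by DESeq2 and limma-voom. All 8 values were below 0, from -0.32 for Folr2 to -0.83 for Marco (median -0.61, against -0.00193 over all tested genes). The interval for Cd5l was -1.26 to -0.16 and that for Timd4 was -1.22 to -0.12, before adjustment. Of the 16 general macrophage genes 15 were also below 0. These genes come from the same livers and the 8 vary together between mice, so a shared sign is not a set of separate observations. With CCl4, 0 of 8 passed between CCl4 + 4MU and CCl4 mice (18.3% of all tested genes, 0 of 8 against 33.8% of all genes unadjusted, and 0 by the other tools), and 4 of 8 were below 0. The intervals there ran from -1.79 to 0.37 for Folr2 and from -0.37 to 1.17 for Vsig4, so changes of up to about that size are not excluded. Both comparisons share mice with the CCl4 comparisons above.

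The siRNA was compared within particle mice, so that the particle was the same on both sides. Without CCl4, 0 of 8 genes differed between siHAS2-LNP and siLuc-LNP (0.0425% of all tested genes, 0 of 8 against 8.94% of all genes unadjusted, 0 by DESeq2 and limma-voom). The log2 differences ranged from -0.08 for Timd4 (95% interval -0.66 to 0.50) to 1.00 for Marco (-0.75 to 2.74), the latter at 1 to 17 counts. With CCl4, 0 of 8 passed (1.09% of all tested genes, 3 of 8 against 16.6% of all genes unadjusted, and 0 by limma-voom), and 7 of 8 were below 0. Timd4 had -1.10 (standard error 0.286, adjusted p = 0.0566), with all 4 CCl4 + siHAS2-LNP mice below all 4 CCl4 + siLuc-LNP mice. It passed with DESeq2 (-1.13, adjusted p = 0.00985) and without CCl4 + siLuc-LNP mouse 3 (-1.22, 0.0408). Clec4f had -0.81 (0.271, adjusted p = 0.126) and Vsig4 -0.83 (0.339, 0.213), again without overlap of the groups, while Cd5l had -0.09 (interval -0.60 to 0.41). The share of all tested genes without overlap between these groups was not counted, so nothing is read from the separation. Summed endothelial genes, which include Stab2 and Lyve1, were 78.3 to 105.1 CPM in CCl4 + siHAS2-LNP and 129 to 145 CPM in CCl4 + siLuc-LNP mice, and summed general macrophage genes 341 to 519 and 522 to 888 CPM. Their part in the values of the 8 genes was not tested.

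When the 8 groups were ordered by mean CPM, most neighbours were not separated. Of 7 neighbouring pairs per gene, the ranges were apart in 2 for Marco and Clec4f, in 1 for Cd163, Vsig4 and Siglec1, and in 0 for Timd4, Cd5l and Folr2. Marco ran from 23.2 ± 11.6 CPM (SD, n = 2) in CCl4 mice to 0.117 ± 0.126 CPM (n = 4) in CCl4 + siHAS2-LNP mice, where it had 0 to 7 counts. Cd163 ran from 14.5 ± 5.80 CPM (n = 4) in control to 0.366 ± 0.218 CPM (n = 4) in CCl4 + siLuc-LNP mice, and the break lay between CCl4 + 4MU and siHAS2-LNP. Clec4f ran from 166 ± 32.4 CPM (n = 4) in control to 29.6 ± 7.13 CPM (n = 4) in CCl4 + siHAS2-LNP mice. Siglec1 had the narrowest span, from 21.6 ± 4.82 CPM (n = 3) in siHAS2-LNP to 9.08 ± 2.22 CPM (n = 3) in 4MU mice, a ratio of 2.38, and Cd5l one of 2.61.

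Over the 27 libraries, Pearson's r between the log2 CPM of 2 of these genes ranged from 0.00 to 0.87 over the 28 pairs (median 0.59), and after subtraction of the group means from -0.07 to 0.93 (median 0.47), with the highest value for Clec4f and Cd5l. Libraries share depth and group, so these values are a description. The genes most like the mean of the 8 (each standardised) were Fcna (r = 0.81), Gfra2 (0.80), Wfdc17 (0.80), C6 (0.79), Tmem98 (0.78), C1qa (0.78), Ccr3 (0.77), Sdc3 (0.77), Adcy4 (0.77) and Rgs12 (0.76). Fcna and C1qa encode proteins of the complement pathways, C6 a component of the membrane attack complex and Ccr3 a chemokine receptor. Of these 10, C6 had the lowest difference between particle and non-particle mice without CCl4 (-2.11) and Ccr3 that with CCl4 (-2.21).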

How the data were processed

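Poly(A) RNA of 27 mouse livers was sequenced as paired ends. According to the labels and methods, the authors trimmed reads with Trimmomatic 0.39, aligned them to GRCm39 with HISAT2 (version not given in the sources used here), and counted pairs per gene of Ensembl release 105 with featureCounts, without multimapping reads, in R 3.4.2. The deposited values are raw counts for 55414 genes. Symbols came from GENCODE vM39, which matched 54749 identifiers. Genes averaging 10 counts or more were kept (14114). All 8 groups entered 1 fit in edgeR 4.0.16 (R 4.3.3) with TMM normalisation and the quasi-likelihood test, and p was adjusted by Benjamini-Hochberg over all tested genes at 0.05. CPM use TMM-scaled totals, limits of 3 counts the totals themselves, and both cover counting error only. DESeq2 1.42.0, limma 3.58.1 (voom), other filters, scaling, blocks and mice left out were alternatives. Scripts were tested on simulated data. In 34 pairs of the same group, chi-square per degree of freedom was 16.9 or more, so no library repeated another of its own group. Pairs across groups were not checked in this way.

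The 8 genes and the gene lists were chosen with earlier results of these data known. Named were all 8 genes, at most 4 genes per list and comparison with the smallest adjusted p past the threshold, and the 10 genes most like the 8 by Pearson's r. Genes outside this rule are named as such.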

Additional observations from a re-analysis of the deposited data

How the results depend on the processing

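For the 8 genes, the counts past the threshold stayed within 1.5 times under DESeq2, limma-voom, DESeq2's size factors in edgeR, edgeR's filterByExpr, no low-count filter, the replicate number as a block and a fit of only the compared groups, with these exceptions. In CCl4 + siHAS2-LNP against CCl4 + siLuc-LNP, DESeq2 called 1 gene and the fit without the low-count filter 3 (Timd4, Clec4f and Vsig4), where edgeR with the filter called 0, and without the filter the interaction of 4MU with CCl4 called 1 (Siglec1). The median differences between particle and non-particle groups moved by less than the spread between mice. With single mice left out, the counts ranged from 1 to 3 in CCl4 against control and in CCl4 + 4MU against 4MU, and from 0 to 1 in CCl4 + siHAS2-LNP against CCl4 + siLuc-LNP. Where 1 mouse of a group remained, it was assumed to vary like the other groups.

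Replicate numbers were shared between groups in the labels, but same-numbered mice did not deviate together (r from -0.32 to 0.29, median -0.02 over 83 pairs), so the numbers do not pair the mice. With the number as a block, the counts were 3 in CCl4 against control, 2 in CCl4 + 4MU against 4MU, where Timd4 had an adjusted p of 0.0792, 3 in CCl4 + siLuc-LNP against siLuc-LNP and 6 in CCl4 + siHAS2-LNP against siHAS2-LNP, and the medians of the particle contrast were 0.08 and -1.41. No other call changed under the block.

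Signs that turned belonged to values that had not passed. Clec4f in siHAS2-LNP against siLuc-LNP was 0.0027 with DESeq2, 0.071 with limma-voom, 0.0025 with DESeq2's size factors, 0.015 without the filter, 0.0069 with filterByExpr and 0.0041 with the compared groups alone. In CCl4 + 4MU against CCl4, Cd5l was -0.0035 with limma-voom and Cd163 0.0055 under the block.

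With single mice left out, other values that had not passed crossed 0. In CCl4 against control the log2 difference ran for Siglec1 from -0.26 to 0.48. In CCl4 + 4MU against 4MU the log2 difference ran for Clec4f from -0.32 to 0.22 and Folr2 from -0.22 to 0.56. In the interaction of 4MU with CCl4 the log2 difference ran for Folr2 from -0.75 to 0.030, Cd163 from -0.0095 to 1.08 and Marco from -0.014 to 1.08. In CCl4 + 4MU against CCl4 the log2 difference ran for Siglec1 from -0.012 to 0.71, Marco from -0.84 to 0.25, Cd163 from -0.56 to 0.54, Clec4f from -0.094 to 0.40 and Cd5l from -0.13 to 0.23. In siHAS2-LNP against siLuc-LNP the log2 difference ran for Vsig4 from -0.034 to 0.75, Folr2 from -0.32 to 0.92, Clec4f from -0.19 to 0.37 and Timd4 from -0.20 to 0.045. In CCl4 + siHAS2-LNP against CCl4 + siLuc-LNP the log2 difference ran for Cd163 from -0.060 to 0.65, Marco from -1.56 to 0.24, Cd5l from -0.20 to 0.13 and Siglec1 from -0.38 to 0.070. In CCl4 + siLuc-LNP against siLuc-LNP the log2 difference ran for Marco from -1.27 to 0.20, Vsig4 from -0.73 to 0.012 and Siglec1 from -0.34 to 0.52. At 1 to 17 counts of Marco per library without CCl4 and at most 14 with it, differences between particle groups smaller than their intervals were not detectable at this depth, and the same holds for Folr2. Calls gained for single genes were those of Clec4f in CCl4 against control, Marco and Siglec1 in CCl4 + siHAS2-LNP against siHAS2-LNP (each without the filter or in a fit of the compared groups alone), Cd163 in CCl4 + siLuc-LNP against siLuc-LNP without the filter and Cd163 in CCl4 + 4MU against 4MU with only the compared groups. The cause was not tested.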

Other observations

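Outside the 8 genes, 3 further genes were lower in each of the 14 particle mice than in each of the 13 other mice. They were singled out after their values were seen. Kcnj16, a potassium channel subunit, had at most 0.188 CPM in particle mice and at least 0.376 CPM in the others, with a mean of the log2 differences without and with CCl4 of -4.66. Its mean over the 27 libraries was 0.486 CPM, and 3 counts correspond to 0.102 to 0.426 CPM. The particle values of Kcnj16 thus lie around that limit, and it passed the filter of 10 counts on average through the mice without particles. Pcolce2, which enhances the cleavage of procollagen, had at most 0.519 and at least 0.598 CPM (-2.66). Its mean over the 27 libraries was 1.16 CPM. The highest particle value of Pcolce2 was little above that limit and lay just below the lowest value of the other mice. C6, a component of the terminal complement pathway, had at most 3.64 and at least 5.73 CPM (-2.07).

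The genes most like the mean of Marco and Cd163 over the 27 libraries, by Pearson's r of the log2 CPM, were C6 (0.91), Kcnj16 (0.91) and Pcolce2 (0.84), followed by Ccr3 (0.79), Kcna2 (0.74) and Ms4a8a (0.74). Ccr3, a chemokine receptor, had log2 differences of -0.75 without and -2.21 with CCl4. Kcna2, another potassium channel gene and one of the listed other Kupffer genes, had -1.26 and -1.25. The libraries share group and particle, so these values describe the samples and were not tested.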
